A study of Rattus norvegicus with 18 samples.

Results

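The miRNAs considered here are those transcribed from within the Hox clusters under the names miR-10a, miR-10b, miR-196a, miR-196b and miR-196c. An entry of the count table was taken when its name began with one of these and it held 10 or more counts over the 18 libraries, whichever arm of the hairpin it came from. This gave 9 entries of 909 in the table. They were both arms of miR-10a, miR-10b, miR-196a and miR-196b and the 5p arm of miR-196c. The lowest entry inside the threshold was miR-196b-3p, with 145 counts in all. The only entry of these names outside it was miR-196c-3p, with 9 counts in 7 libraries.

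Small RNA was sequenced from the gastrocnemius, a mixed calf muscle, of male Brown Norway rats (BN/SsNOlaHSD), with 1 library a rat. Groups of 6 rats each were taken at 6 months on ad libitum feeding (young AL, numbered 1 to 6), at 28 months on the same feeding (old AL, numbered 7 to 12) and at 28 months on caloric restriction (old CR, numbered 13 to 18). Restricted rats received 55% of the intake of the freely fed rats from the age of 2 months, and all rats were housed singly from then on. The data held no young restricted group, so the diets were compared in old rats only, and old CR against young AL differs in age and diet together.

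A Hox cluster is a row of homeobox transcription factor genes that give each segment of the embryo its position along the body axis. The miR-10 and miR-196 hairpins lie among these genes, are transcribed with them, and have Hox mRNAs among their known targets. In adult tissue they keep a regional pattern, and in limb muscle they remain expressed. A hairpin yields a 5p and a 3p arm, of which 1 is usually loaded into Argonaute, and the seed, bases 2 to 8 from the 5′ end, leads target recognition.

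In the RefSeq annotation of GRCr8, Mir10a lay at chr10:81779709-81779818 on the plus strand, between Hoxb5 and Hoxb4. Mir196c lay in the same cluster at chr10:81727551-81727630, plus strand, between Hoxb13 and Hoxb9. Mir10b lay inside the Hoxd4 gene at chr3:80035859-80035967, plus strand. Mir196a lay between Hoxc10 and Hoxc9 at chr7:135988876-135988985, plus strand, and Mir196b between Hoxa9 and Hoxa10 at chr4:82661101-82661185, minus strand. The deposited counts were made on an earlier build, Rnor_6.0 per the labels, and carry no coordinates. Each of the 4 Hox clusters is thus represented, with both families together only in the Hoxb cluster.

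The mature sequences are shown because they decide which entries can be told apart by sequencing and which share a seed. They were taken from RefSeq, which held 8 of the 9 entries, miR-196a-3p being the exception. They are written 5′ to 3′ with the seed in capitals.
rno-miR-10a-5p: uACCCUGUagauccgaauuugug
rno-miR-10b-5p: cCCUGUAGaaccgaauuugugu
rno-miR-196a-5p: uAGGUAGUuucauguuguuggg
rno-miR-196b-5p: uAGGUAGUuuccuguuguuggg
rno-miR-196c-5p: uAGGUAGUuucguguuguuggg
rno-miR-10a-3p: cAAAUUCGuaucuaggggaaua
rno-miR-10b-3p: aCAGAUUCgauucuaggggaa
rno-miR-196b-3p: uCGACAGCacgacacugccuuca

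The miR-196 5p arms had the seed AGGUAGU in common and differed from each other at a single base. Counted from 1 at the 5′ end, this was A12C from miR-196a-5p to miR-196b-5p, A12G from miR-196a-5p to miR-196c-5p and C12G from miR-196b-5p to miR-196c-5p. The remaining 21 of 22 bases were equal in each pair.

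The miR-10 5p arms were equal at 20 of 21 facing bases, with U12A the one difference, in positions of miR-10a-5p. As annotated, however, miR-10b-5p starts 2 bases further in than miR-10a-5p, and this shifts its seed from ACCCUGU to CCUGUAG. The miR-10b hairpin holds the bases UA just before the annotated start. A molecule that began there would read as follows, with the seed of miR-10a-5p, and the counts do not say at which base the sequenced molecules began.
rno-miR-10b-5p with the upstream bases: uACCCUGUagaaccgaauuugugu

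The 3p arms were less alike, with 17 of 20 facing bases equal between miR-10a-3p and miR-10b-3p (A3G, U9A and A10U in positions of miR-10a-3p) and different seeds. The sources used here do not say how reads with several possible miRNAs were assigned, so the split of counts between miR-10a-5p and miR-10b-5p and among the miR-196 5p arms is uncertain to that extent.

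A library held 34940346 to 83110905 counts. The miR-1 family, with predicted candidate miRNAs that carry its counts, took 60.7% to 86.8% of them. Some reads appear to be listed under more than 1 entry, with miR-1b at 223669 CPM and a candidate at 222796 CPM on average. This share and those below are therefore of listed counts and not of molecules. Because of the miR-1 share, levels are given as CPM, counts scaled to a common library size, after scaling by the trimmed mean of M-values (TMM), whose factors ran from 0.656 to 2.08. The striated muscle markers (miR-1-3p, miR-133a, miR-133b, miR-206, miR-208b and miR-499) were all detected and summed to 72647 to 186544 CPM in a library. The defining markers of the labelled tissue were thus present throughout. This sum holds miR-1-3p alone of the miR-1 family and leaves out larger entries of it, such as miR-1b and miR-3571. Of the markers of other cells, none was at 0. Their sums were 3818 to 8048 CPM for endothelium, 1035 to 2226 CPM for fibroblasts, 4819 to 10105 CPM for smooth muscle, 103 to 526 CPM for leukocytes and 2.95 to 10.6 CPM for erythroid cells. The nerve markers ran from 6.88 to 20.5 CPM in young AL, 11.0 to 33.6 CPM in old AL and 18.5 to 155 CPM in old CR, with medians of 11.8, 23.8 and 44.8 CPM. The liver miRNA miR-122-5p ran from 0.549 to 39.1 CPM in young AL, 49.2 to 770 CPM in old AL and 101 to 185 CPM in old CR. The part of the nerve and liver markers in the results below was not tested. The muscle was sequenced whole, so that fewer cells of a type and less RNA per cell cannot be told apart.

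rno-miR-10b-5p was the most abundant of the 9 entries and rank 15 among the 763 known miRNAs, at a mean of 5108 CPM over all libraries. It held 79.1% of the counts of the 9 entries. rno-miR-10a-5p followed at 1091 CPM, or 17.7% of these counts, and rank 35. rno-miR-196a-5p averaged 99.9 CPM and miR-196b-5p 71.4 CPM, at 1.57% and 1.13% of the counts. The remaining entries were low, with 23.9 CPM for miR-10b-3p, 5.21 CPM for miR-10a-3p, 1.52 CPM for miR-196c-5p, 0.238 CPM for miR-196a-3p and 0.132 CPM for miR-196b-3p. These levels count molecules of similar length, 21 to 23 bases, and need no division by length. All 9 entries together made up 0.356% to 0.934% of a library's counts, and 2.15% to 3.72% of the counts outside the miR-1 family.

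The order of levels was the same in each group down to miR-196c-5p. Between neighbours in this order, miR-196a-5p and miR-196b-5p overlapped in young AL (79.2 to 123 CPM against 70.6 to 91.9 CPM). They did not overlap in old AL or old CR. The pair miR-196a-3p and miR-196b-3p overlapped in every group, and their means changed places in old AL (0.135 and 0.161 CPM). No other neighbours overlapped in any of the 18 libraries.

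**Figure D1:**
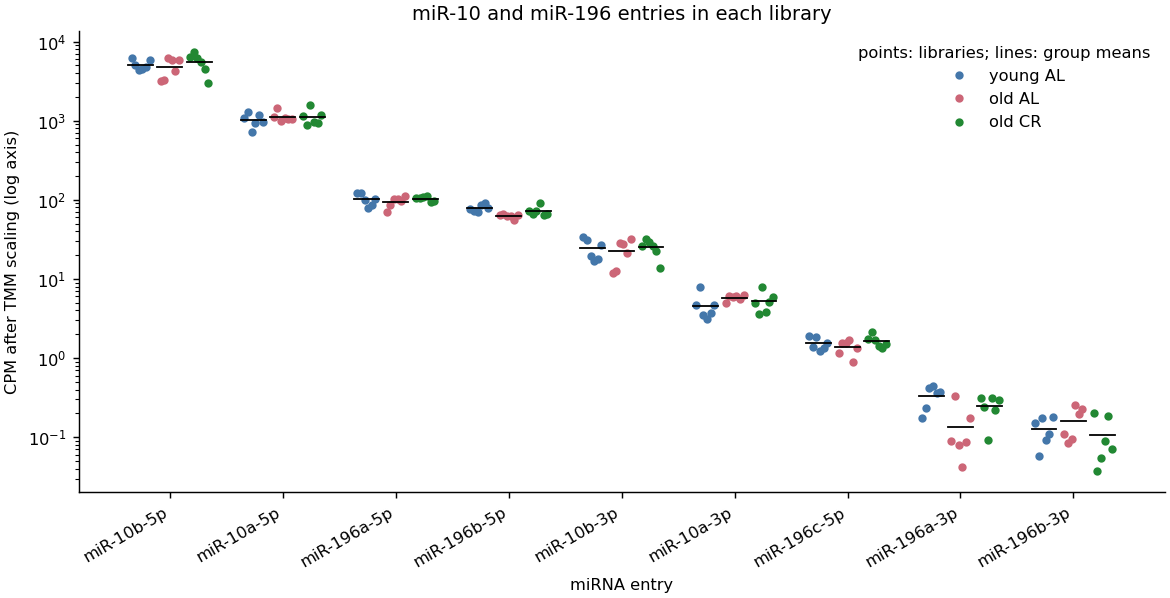
Level of each of the 9 entries in each library, in CPM after TMM scaling on a log axis, with a point for each of the 18 libraries coloured by group and a line at each group mean. The entry means span from 5108 CPM (miR-10b-5p) to 0.132 CPM (miR-196b-3p), and the groups overlap in every entry except miR-196b-5p, where the old AL points lie below the young AL points.

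The first comparison asked whether these miRNAs differ between the muscle of old and young freely fed rats. None of the 9 passed the edgeR test, which required both an adjusted p no higher than 0.05 and a change of 1.5-fold or more, where 3.28% of the 732 entries tested were called (24 entries). DESeq2 also called none of the 9, against 11.5% of entries. An unadjusted edgeR p under 0.05 was reached by 2 of the 9, miR-196b-5p and miR-196a-3p, against 23.4% of all entries. Groups that did not overlap were seen for 1 of the 9, miR-196b-5p, against 3.55% of entries. The 9 log2 fold changes had a median of -0.11, with 3 above and 6 below 0, where the median of all entries was 0.06.

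rno-miR-10b-5p had a lowest, median and highest level of 4376, 4944 and 6111 CPM in young AL and 3136, 4991 and 6154 CPM in old AL. The medians were close and the old rats spread more widely, to either side of the young ones. Its log2 fold change was -0.11 (SE 0.214, 95% interval -0.58 to 0.35, edgeR adjusted p = 0.827), so that this comparison leaves room for a change of up to about the size of the fold threshold downwards.

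rno-miR-10a-5p had a lowest, median and highest level of 728, 1026 and 1300 CPM in young AL and 999, 1061 and 1440 CPM in old AL. The log2 fold change was 0.11 (SE 0.151, 95% interval -0.22 to 0.43, edgeR adjusted p = 0.750). The old AL libraries lay close together apart from replicate 8, the highest. Both miR-10 main arms were therefore within the spread between rats.

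rno-miR-196a-5p had a lowest, median and highest level of 79.2, 101 and 123 CPM in young AL and 70.9, 98.5 and 111 CPM in old AL, and the groups overlapped over most of their range. The log2 fold change was -0.11 (SE 0.168, 95% interval -0.47 to 0.26, edgeR adjusted p = 0.796).

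rno-miR-196b-5p, the Hoxa cluster member of the family, differed most evenly. Its lowest, median and highest level was 70.6, 78.3 and 91.9 CPM in young AL and 55.2, 63.7 and 66.5 CPM in old AL. Every one of the 6 old AL values was under the lowest young AL value. The means were 79.6 ± 7.88 and 62.6 ± 3.89 CPM (SD, n = 6 each), with a log2 fold change of -0.35 (SE 0.103, 95% interval -0.57 to -0.13). The edgeR p was 0.00491 before and 0.0879 after adjustment, which misses the threshold. DESeq2 gave the same log2 fold change with an adjusted p of 0.000622, past the p threshold but short of the fold change of 1.5. The difference also rested on the scaling. On library totals alone the levels were 82.9 ± 15.1 and 71.9 ± 35.4 CPM (SD, n = 6 each), the groups overlapped, and old AL replicate 7 was the highest of all at 133.6 CPM. With the miR-196 5p arms summed, since they are nearly identical, the log2 fold change was -0.22 (edgeR adjusted p = 0.283).

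rno-miR-196a-3p, the passenger arm, was the entry with the largest fold change but the second lowest level. It had a lowest, median and highest level of 0.172, 0.369 and 0.438 CPM in young AL (9 to 26 counts) and 0.0421, 0.0883 and 0.336 CPM in old AL (3 to 28 counts). Of the old AL libraries 4 lay below every young AL library, while replicate 8 lay among the young ones. The log2 fold change was -1.29 (SE 0.463, 95% interval -2.30 to -0.28), with an edgeR p of 0.0163 before and 0.142 after adjustment, and a DESeq2 adjusted p of 0.0850. Without replicate 8 it was -1.77 (SE 0.400, edgeR adjusted p = 0.0455) and would be called. The 5p arm of the same hairpin had a log2 fold change of -0.11.

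**Figure D2:**
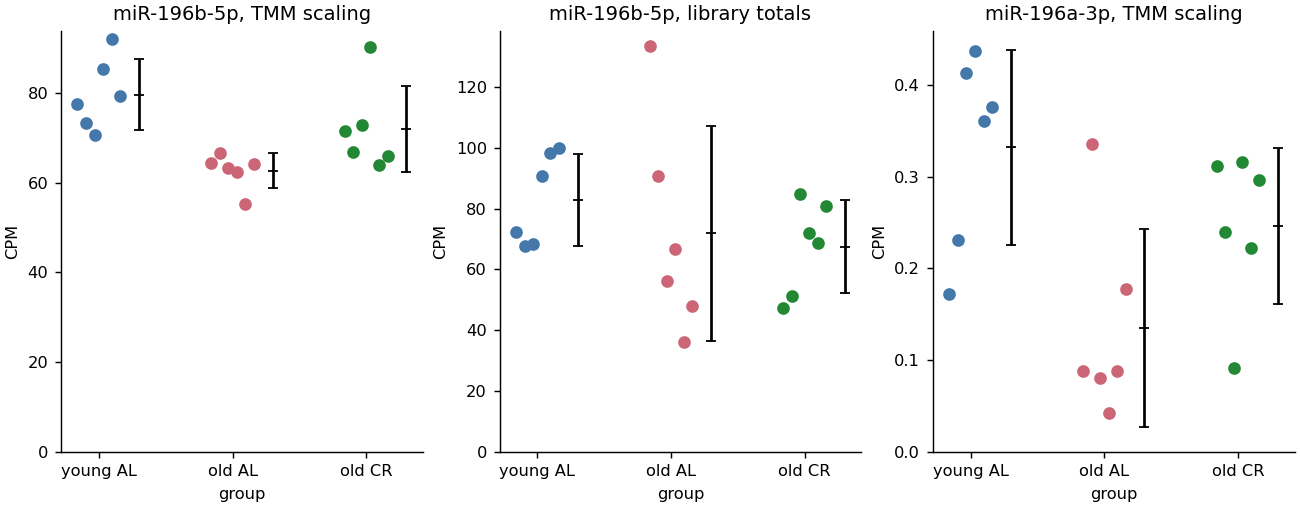
Level of miR-196b-5p after TMM scaling (left) and on library totals (middle) and of miR-196a-3p after TMM scaling (right), in CPM, with a point for each library and bars for the mean and SD of the 6 libraries of each group. After TMM scaling the old AL points of miR-196b-5p are all under the young AL points; on library totals old AL replicate 7 is the highest of all, and for miR-196a-3p old AL replicate 8 lies at 0.336 CPM among the young AL libraries.

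The remaining entries gave log2 fold changes of 0.34 for miR-10a-3p (95% interval -0.16 to 0.83, edgeR adjusted p = 0.401), -0.12 for miR-10b-3p (edgeR adjusted p = 0.896), -0.18 for miR-196c-5p (edgeR adjusted p = 0.680) and 0.32 for miR-196b-3p (edgeR adjusted p = 0.735). None of these was larger than the spread between rats. The young AL range of miR-10a-3p, 3.13 to 7.86 CPM, enclosed the old AL range of 4.92 to 6.33 CPM.

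The second comparison set old CR rats against young AL rats. edgeR called 9.32% of the 730 entries tested and DESeq2 14.9%, but neither called any of the 9. An unadjusted edgeR p under 0.05 was reached by 0 of the 9, against 25.5% of entries, and groups that did not overlap by 0 of the 9, against 5.07%. The 9 log2 fold changes had a median of 0.04, with 6 above and 3 below 0, beside 0.08 over all entries. For so few entries, 0 called of 9 is near the background share and is no result about them.

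In old CR the lowest, median and highest level of rno-miR-10b-5p was 2978, 5835 and 7336 CPM, the widest range of the 3 groups, with a log2 fold change against young AL of 0.09 (SE 0.196, edgeR adjusted p = 0.843). For rno-miR-10a-5p the levels were 885, 1055 and 1576 CPM and the log2 fold change was 0.10 (SE 0.183, edgeR adjusted p = 0.814). rno-miR-196a-5p was the steadiest, at 92.9, 104 and 113 CPM, with a log2 fold change of 0.01 (SE 0.133, 95% interval -0.28 to 0.30, edgeR adjusted p = 0.978). This interval lies inside a fold change of 1.5 in either direction. For miR-196b-5p the levels were 64.0, 69.1 and 90.2 CPM, of which the lower ones fell beneath the young AL range. Its log2 fold change was -0.16 (SE 0.127, 95% interval -0.43 to 0.12, edgeR adjusted p = 0.501), and that of miR-196a-3p was -0.43 (SE 0.345, edgeR adjusted p = 0.499). The other 4 entries had log2 fold changes from -0.28 (miR-196b-3p) to 0.17 (miR-10a-3p).

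The third comparison asked whether caloric restriction changed these miRNAs in old rats. edgeR called 2 of the 736 entries tested, or 0.272%, and DESeq2 2.58%, with none of the 9 among either. An unadjusted edgeR p under 0.05 was reached by 0 of the 9, against 12.0% of entries, and groups that did not overlap by 0 of the 9, against 0.543%. The 9 log2 fold changes had a median of 0.17, with 6 above and 3 below 0, beside 0.01 over all entries. Each group enters 2 of the 3 comparisons, so their fold changes are not independent of each other.

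For rno-miR-10a-5p the old CR and old AL means were 1117 ± 257 and 1121 ± 162 CPM (SD, n = 6 each), with a log2 fold change of -0.00 (SE 0.157, 95% interval -0.34 to 0.34, edgeR adjusted p = 0.998). For rno-miR-10b-5p they were 5479 ± 1552 and 4717 ± 1362 CPM, with a log2 fold change of 0.22 (SE 0.25, 95% interval -0.33 to 0.76, edgeR adjusted p = 0.807). The interval of miR-10a-5p lies inside a 1.5-fold change in either direction and that of miR-10b-5p does not. For rno-miR-196a-5p the log2 fold change was 0.13 (SE 0.133, edgeR adjusted p = 0.765). miR-196b-5p averaged 71.8 ± 9.60 CPM in old CR, between the means of old AL and young AL, and its log2 fold change against old AL was 0.21 (SE 0.119, 95% interval -0.05 to 0.47, edgeR adjusted p = 0.489). On library totals the sign was the opposite, at -0.09 (edgeR adjusted p = 0.941). miR-196a-3p had 0.0909, 0.268 and 0.316 CPM as its lowest, median and highest level in old CR, and a log2 fold change of 0.86 (SE 0.497, edgeR adjusted p = 0.489). Its old CR and old AL libraries overlapped.

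**Figure D3:**
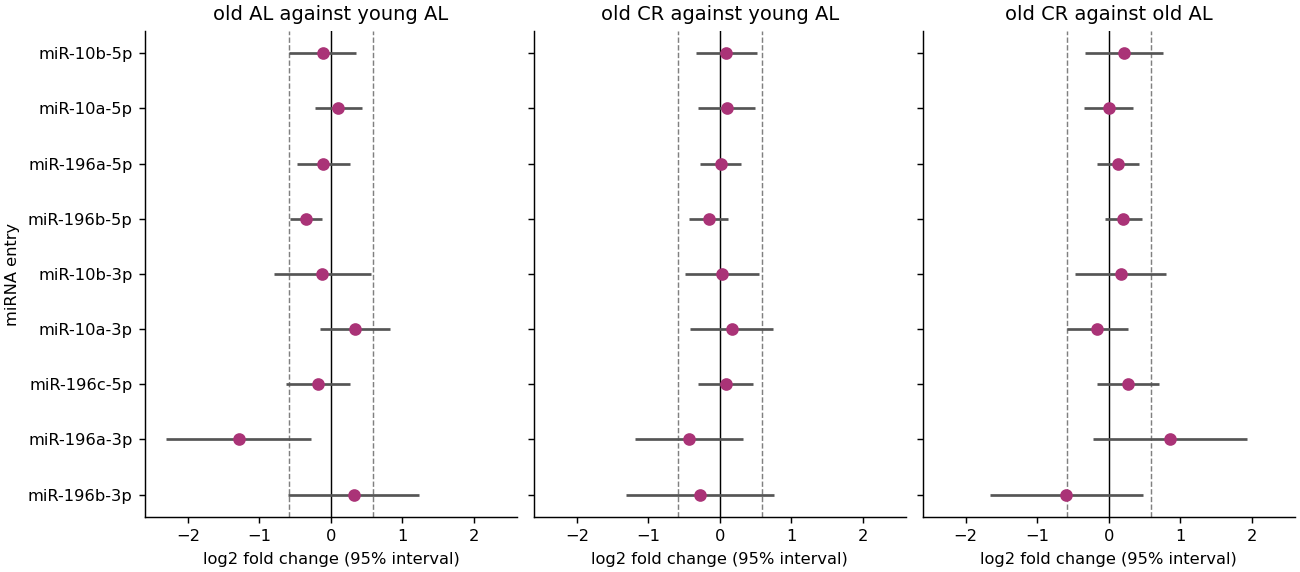
Log2 fold change of the 9 entries in each of the 3 comparisons from edgeR, with bars for the 95% interval, a solid line at 0 and dashed lines at a fold change of 1.5 in either direction. Most intervals cross 0; those of miR-196b-5p (-0.57 to -0.13) and miR-196a-3p (-2.30 to -0.28) in old AL against young AL lie below it before adjustment for the number of entries.

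Ratios of counts within a library do not depend on the scaling, and 4 of them were compared between groups with an exact permutation test over all arrangements of 6 against 6 libraries, two-sided, with 0.5 added to each count. The smallest p this allows is 0.00216. The count of miR-10a-5p divided by that of miR-10b-5p ranged from 0.166 to 0.255 in young AL, with a median of 0.192. In old AL it ranged from 0.162 to 0.444, with a median of 0.217, and in old CR from 0.121 to 0.400, with a median of 0.195. The medians were close together, and the upward widening came from 3 libraries. These were old AL replicates 7 and 8, at 0.359 and 0.444, and old CR replicate 18, at 0.400. The downward widening in old CR came from replicate 14, at 0.121, below the young AL range.

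Between groups the mean log2 ratio differed by 0.29 in old AL against young AL (SE 0.266, exact permutation p = 0.312), by 0.06 in old CR against young AL (exact permutation p = 0.829) and by -0.24 in old CR against old AL (exact permutation p = 0.511). Without old AL replicates 7 and 8 the first of these was -0.06 (exact permutation p = 0.743), a choice made after their values were seen. The group medians lay between 0.192 and 0.217, a narrower span than the range within any group.

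After TMM scaling, miR-10b was at the bottom of its own range in these 3 libraries, while still above miR-10a. Its 5p arm was at 3136, 3241 and 2978 CPM and its 3p arm at 11.8, 12.5 and 13.8 CPM, in old AL replicates 7 and 8 and old CR replicate 18. These were the 3 lowest values of either arm among the 18 libraries after this scaling. miR-10a-5p was at 1124, 1440 and 1190 CPM there, each above the median of its group. Some marker sums stood apart in part of these libraries. After TMM scaling the striated muscle markers summed to 72647 and 74449 CPM in old AL replicates 7 and 8, the lowest of all. In old CR replicate 18 their sum was 94112 CPM, within the range of 93550 to 186544 CPM in the other 15 libraries. On library totals old AL replicate 7 had the highest sum instead, and replicate 8 was not the lowest. The leukocyte markers summed to 526 CPM in old AL replicate 8, 161 CPM in replicate 7 and 205 CPM in old CR replicate 18, against 103 to 174 CPM in the other 15 libraries. The TMM factor of old AL replicate 7 was the highest, 2.08. On library totals its miR-10b arms were not among the lowest, and the 5p arm of old AL replicate 8 was not among the 3 lowest. The low miR-10b levels thus rest on the scaling for both arms in replicate 7 and for the 5p arm in replicate 8. The part of these measures in the ratio was not tested.

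**Figure D4:**
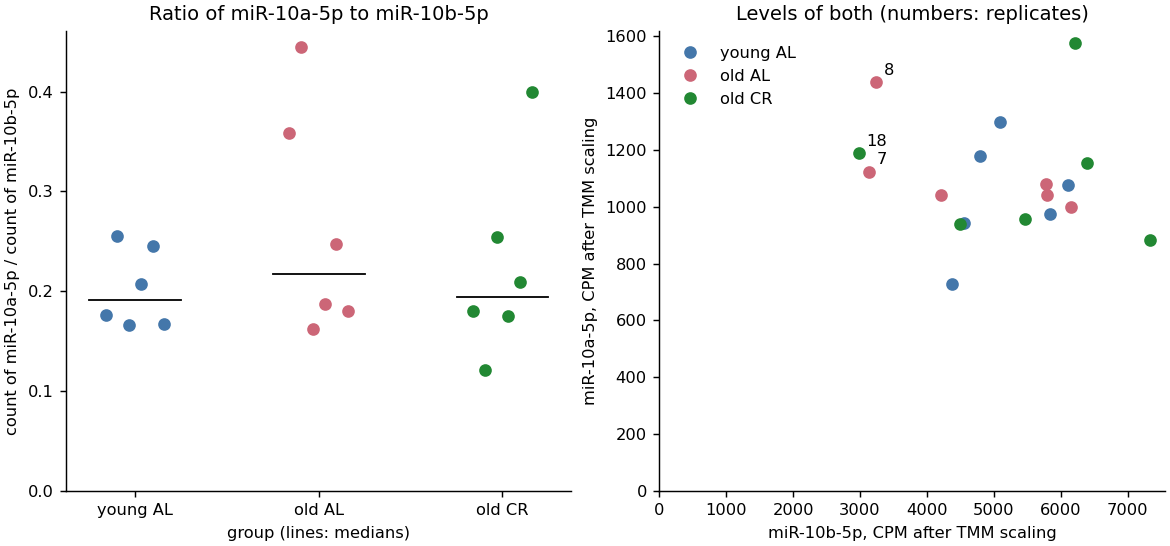
Count of miR-10a-5p divided by that of miR-10b-5p in each library with a line at each group median (left), and the levels of both in CPM after TMM scaling (right), with old AL replicates 7 and 8 and old CR replicate 18 numbered. The numbered libraries have ratios of 0.359 to 0.444, above the other 15 libraries, and the lowest levels of miR-10b-5p.

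The ratio of miR-196a-5p to miR-10b-5p differed by 0.06 in old AL against young AL (exact permutation p = 0.639), -0.01 in old CR against young AL (exact permutation p = 0.944) and -0.08 in old CR against old AL (exact permutation p = 0.714). None of these differences exceeded the spread between rats.

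The 5p arm of miR-10a was counted 165 to 319 times as often as its 3p arm in young AL (median 219), 164 to 234 times in old AL (median 182) and 185 to 252 times in old CR (median 217). For miR-10b the corresponding ranges were 163 to 272 (median 222), 183 to 267 (median 212) and 198 to 247 (median 213). The 5p arm was the main product of both hairpins in every library, and to a similar degree. The log2 ratio of the miR-10a arms differed by -0.28 in old AL against young AL (SE 0.170, exact permutation p = 0.130), -0.10 in old CR against young AL (exact permutation p = 0.554) and 0.18 in old CR against old AL (exact permutation p = 0.154). That of the miR-10b arms differed by 0.01, -0.00 and -0.01 (exact permutation p = 0.939, 1 and 0.896). Adjusted over the 12 tests, the lowest p of any ratio was 0.922.

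**Figure D5:**
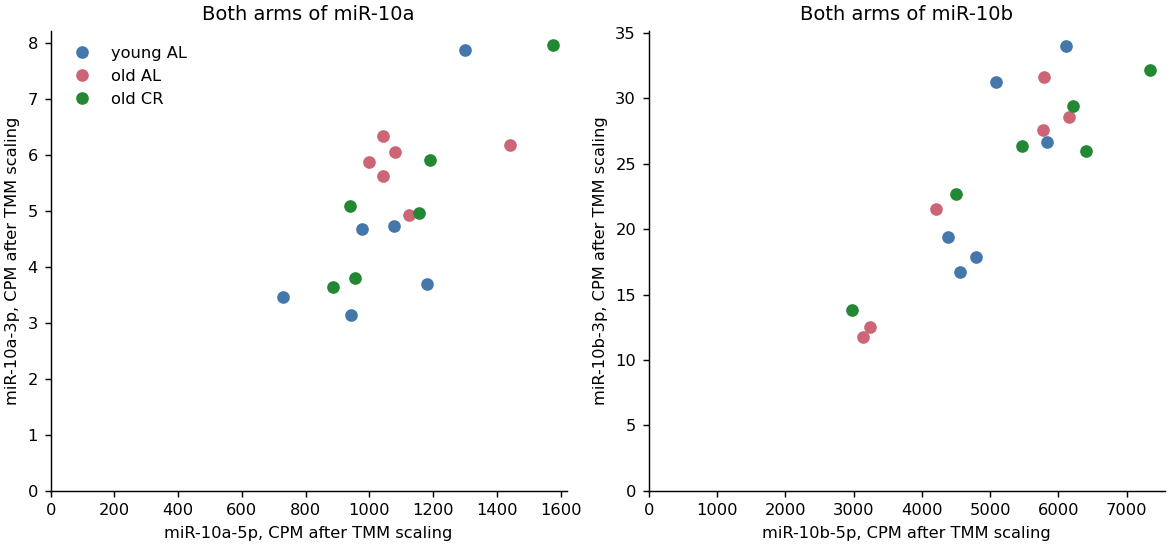
Level of the 3p arm against that of the 5p arm in each library, in CPM after TMM scaling, for miR-10a (left) and miR-10b (right), coloured by group. The arms of miR-10b rise and fall together over the 18 libraries, with the 3 lowest libraries at 11.8 to 13.8 CPM of the 3p arm, and those of miR-10a less closely.

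Across the 18 libraries the arms of miR-10b varied together, with a Spearman correlation of log2 CPM of 0.81, and those of miR-10a did so with 0.68. Between miR-10a-5p and miR-10b-5p the correlation was -0.12, and between miR-10a-5p and miR-196c-5p, which come from the same Hoxb cluster, it was -0.02. miR-10b-5p and miR-196a-5p, from different clusters, reached 0.67, while miR-196a-5p and miR-196b-5p, which share a seed, reached 0.24. Within single groups of 6 libraries the range was 0.77 to 0.94 for the miR-10b arms and -0.09 to 0.83 for the miR-10a arms. For miR-10a-5p it was -0.89 to 0.54 with miR-10b-5p and -0.14 to 0.2 with miR-196c-5p. For miR-196a-5p it was 0.37 to 0.83 with miR-10b-5p and -0.6 to 1 with miR-196b-5p. These correlations are descriptions over points that share the TMM scaling, the library depth and, over all 18 libraries, the 3 groups.

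Among 320 known miRNAs of at least 1 CPM, the patterns most like that of rno-miR-10a-5p over the 18 libraries were those of let-7e-5p (Spearman 0.78), miR-3596c (0.77), whose hairpin overlaps that of let-7e in RefSeq, and miR-150-3p (0.74). Most like rno-miR-10b-5p were miR-378b, miR-181b-5p and miR-181a-2-3p, each at 0.82. Most like rno-miR-196a-5p were miR-10b-3p (0.85), miR-30a-3p (0.78) and miR-421-3p (0.76). The 2 miR-10 main arms thus had no leading neighbour in common.

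Some predicted candidates of the table carried the counts of miR-10. A first candidate held 89684 counts in young AL replicate 2, 64727 in young AL replicate 6 and 100260 in old CR replicate 18, which is 99.7% to 99.8% of the miR-10a-5p count in each, and 0 counts in the other 15 libraries. A second candidate held 343875 counts in young AL replicate 5, 269160 in old AL replicate 8 and 190256 in old AL replicate 11, or 99.5% to 99.6% of the miR-10b-5p count, and 0 elsewhere. A candidate was thus listed at nearly the full count of the miRNA in some libraries and at nothing in the rest. In old AL against young AL, DESeq2 gave the first candidate an adjusted p of 5.86e-21 and edgeR one of 0.174, while for miR-10a-5p, with nearly the same counts where both were listed, the values were 0.740 and 0.750. In old CR against old AL, DESeq2 gave the second candidate an adjusted p of 4.06e-21 and edgeR one of 0.392, while miR-10b-5p had 0.807 by edgeR.

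The related entries chosen for comparison were miR-99a, miR-99b and miR-100, the other branch of the miR-10 superfamily, and miR-615, the other miRNA of a Hox cluster. miR-100-5p is shown because it is equal to miR-10a-5p at 19 of 22 facing bases (C3A, U6C and U18C in positions of miR-10a-5p) and yet has another seed.
rno-miR-100-5p: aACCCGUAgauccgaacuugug

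None of these 7 entries was called by edgeR or DESeq2 in any of the 3 comparisons. An unadjusted edgeR p under 0.05 was reached by miR-99a-5p and miR-100-5p in old AL against young AL, by miR-100-5p in old CR against young AL and by miR-99a-5p in old CR against old AL. Their median log2 fold change was -0.16 in old AL against young AL, -0.02 in old CR against young AL and 0.05 in old CR against old AL. The most abundant, miR-99a-5p, averaged 8411 ± 2115 CPM in young AL, 5928 ± 695 CPM in old AL and 8377 ± 1162 CPM in old CR (mean ± SD over 6 rats). Its log2 fold change was -0.51 in old AL against young AL (edgeR adjusted p = 0.118, DESeq2 adjusted p = 0.0359). In old CR against old AL it was 0.51 (SE 0.127, edgeR adjusted p = 0.319, DESeq2 adjusted p = 0.00216). After TMM scaling all 6 old CR libraries lay above all 6 old AL libraries (0.543% of all entries had groups that did not overlap). On library totals the levels were 6984 ± 4123 CPM in old AL and 7974 ± 2317 CPM in old CR, and the groups overlapped. Both of these log2 fold changes passed the p threshold of DESeq2 but fell short of 1.5-fold. miR-100-5p averaged 761 ± 104, 607 ± 91.6 and 579 ± 79.7 CPM in young AL, old AL and old CR, with log2 fold changes against young AL of -0.34 (edgeR adjusted p = 0.153) and -0.40 (edgeR adjusted p = 0.0878), for which DESeq2 gave adjusted p = 0.112 and 0.00953. miR-615, whose hairpin lies within Hoxc5 and Hoxc6, stayed below 1 CPM in every library.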

How the data were processed

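Small RNA libraries of gastrocnemius were made with the NEBNext small RNA kit and sequenced by the authors, who trimmed reads with Cutadapt (1.2.1 per the labels) and Sickle, named known miRNAs and predicted candidates with miRDeep2, and deposited raw counts for 763 known miRNAs and 146 candidates in 18 libraries. The labels also name Bowtie2 2.4.0 and Rnor_6.0. The sources used here do not give the miRBase release, the strand setting of the counting or the treatment of reads with several possible miRNAs. Every column matched a sample (0 columns unused).

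Counts were compared with edgeR 4.0.16 in R 4.3.3 (TMM, robust quasi-likelihood test, two-sided), with 1 fit for each pair of groups (12 libraries), over entries with at least 10 counts there, with Benjamini-Hochberg adjustment over all of them. Calls needed an adjusted p no higher than 0.05 and a change of 1.5-fold or more. Levels are CPM after TMM over the 18 libraries. DESeq2 1.42.0 was the other tool. Ratios were tested in SciPy 1.17.1. Replicates of a group differed by far more than counting error (the lowest chi-square per degree of freedom was 1214), so none was counted as a repeat of another. The tests set group differences against the spread between libraries. With 1 library a rat, that spread joins differences between rats and between library preparations. The fits were first tested on simulated data, with changes placed in entries drawn from the whole table. Of simulated 2-fold changes edgeR called 10.8% in old AL against young AL, 18.4% in old CR against young AL and 16.8% in old CR against old AL. DESeq2 called 29.0%, 27.6% and 22.1% of them. Over the whole table most changes of that size were thus missed, and an entry not called may still differ. These rates were not computed for the miR-10 and miR-196 entries alone. In each comparison their 95% intervals, other than those of miR-196a-3p and miR-196b-3p, lay inside a 2-fold change in either direction. The intervals of miR-196a-3p and miR-196b-3p reached beyond it, and smaller changes remain possible in the others.

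The entries named are the 9 members, candidates that share their counts within 10% or 2 counts, the 7 related entries and the 3 closest patterns for miR-10a-5p, miR-10b-5p and miR-196a-5p. The members, lists and markers were chosen with earlier results of these data known. Alternatives were RLE and upper-quartile factors, library totals with and without the miR-1 family, DESeq2 with and without its filters, and filterByExpr or no filter. Further ones were no robust estimation, 1 fit to the 3 groups, known miRNAs only, near-identical miRNAs summed and the adjusted p alone. Others were other prior counts and medians for the ratios, each library left out, and the removal of young AL replicates 1 and 2 together. The column names of replicates 1 and 2 open with numbers out of sequence with the other young AL libraries. Leaving out old AL replicates 7 and 8, and old CR replicate 18 with them, was added after the data were seen. Names and sequences came from RefSeq (GRCr8). RT-qPCR, target predictions and cell culture data are not analysed here.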

Additional observations from a re-analysis of the deposited data

Results flagged for a closer look

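Of 39 groups of 6 libraries examined, 3 held a library that stood far from the others on the log2 scale, where chance alone would give about 1 in 20. For rno-miR-10a-5p this was old AL replicate 8, the highest at a log2 CPM of 10.49 (1440 CPM), with the next library at 10.13. For rno-miR-196b-5p it was old AL replicate 11, the lowest at 5.79 (55.2 CPM), with the next at 5.96. For rno-miR-196a-3p it was old CR replicate 15, the lowest at -3.34 (0.0909 CPM, 5 counts), with the next at -2.12.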

How the results depend on the processing

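No paired analysis was possible because the groups share no replicate number, each rat having its own from 1 to 18. None of the 9 entries was called under any alternative of the 3 comparisons, with 1 exception. In old AL against young AL, leaving out 1 library in turn gave 0 to 1 called entries, the 1 being rno-miR-196a-3p without old AL replicate 8 (log2 fold change -1.77, edgeR adjusted p = 0.0455). Over all entries, the calls in old AL against young AL were 24, but 0 on library totals, 13 on totals without the miR-1 family, 37 with filterByExpr, 53 among known miRNAs only, 84 and 99 by DESeq2 with and without its filters, and 9 to 20 with a library left out. In old CR against young AL they were 68, but 109 and 129 by DESeq2, and 45 without old CR replicate 18. In old CR against old AL they were 2, but 19 and 22 by DESeq2, 0 with upper-quartile factors, with library totals, without robust estimation or among known miRNAs only, and 0 to 3 with a library left out.

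The log2 fold change of rno-miR-196b-5p in old AL against young AL ran from -0.41 to -0.21 over the alternatives other than single libraries left out, with an edgeR adjusted p of up to 0.802, on library totals. With a library left out it ran from -0.38 to -0.32 (edgeR adjusted p = 0.0897 to 0.150). A sign change counted as a reversal where the value reported exceeded its SE. This held for old CR against old AL on library totals, at -0.091 for miR-196b-5p and -0.023 for miR-196c-5p, and for the log2 ratio of miR-10a-5p to miR-10b-5p in old AL against young AL without old AL replicates 7 and 8, at -0.059. That ratio was 0.12 to 0.41 with 1 library left out. The log2 ratio of the miR-10a arms reached an unadjusted exact permutation p below 0.05 in old AL against young AL without young AL replicate 2 (-0.38, p = 0.0433) or without old AL replicates 7 and 8 (-0.41, p = 0.0381). In old CR against old AL the exact permutation p was 0.0190 without these 2 (0.32) and 0.0317 without old CR replicate 18 as well (0.34). The cause was not tested. Of 681 recomputed fold changes of the 9 entries 678 kept their side of the threshold without a reversal, as did 195 of 200 recomputed ratios. As none was past its threshold at first, this mostly means that they stayed short of it. The sign itself was less stable. It changed in 47 of the fold changes, in 14 of 27 results, and in 37 of the ratios, in 9 of 12 results.

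Entries below 1 CPM rest on few counts, 2 to 28 in a library for the 3p arms of miR-196. Intervals are for the difference between groups and rest on the spread between 6 libraries a group, 1 a rat.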
